A study of Homo sapiens with 6 samples.

Results

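The EGF family ligands, the ERBB receptors they bind and the receptor inhibitor ERRFI1 were examined in RNA-Seq data of A549 cells in which KMT9α was depleted by siRNA. The set holds 10 genes chosen by name, namely the ligands EREG, AREG, HBEGF, TGFA, BTC and NRG1, the receptors EGFR, ERBB2 and ERBB3, and ERRFI1. They are 10 of the 23180 gene symbols with counts, and for each, the listed transcript with the highest total over the 6 samples stands for the gene. A549 is a long-established line of human lung adenocarcinoma cells, and all samples were labelled wild type and passage 11. The study transfected 3 samples with the control siRNA siControl and 3 with siKMT9α#1, an siRNA against KMT9α, a subunit of the histone methyltransferase KMT9 that is encoded by N6AMT1, and took RNA 3 days later. The comparison asks how RNA levels change when KMT9α is depleted, and it rests on 1 siRNA sequence against KMT9α in 1 cell line.

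EGF family ligands are made as membrane-anchored precursors that metalloproteases of the ADAM family cut free from the cell surface. The released or anchored ligand binds a receptor tyrosine kinase of the ERBB family, the receptors pair, and the pair signals through adaptor proteins to the RAS-MAPK and PI3K pathways. EREG, AREG, HBEGF, TGFA and BTC bind EGFR, some of them ERBB4 as well, while NRG1 binds ERBB3 and ERBB4 and ERBB2 binds no ligand of its own. ERRFI1, also called MIG6, is a cytoplasmic protein that binds and inhibits active ERBB kinases. Lung adenocarcinomas often depend on EGFR signalling.

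The site that siKMT9α#1 targets in KMT9α mRNA and its seed are shown because any transcript that holds the seed complement could also be bound. The 25-base target lies in N6AMT1 on the minus strand at chr21:30254500-30254524 (GRCh37), and capitals mark the 7 bases ACATTCA that pair with bases 2 to 8 of the guide strand. None of the 10 genes holds ACATTCA in its annotated 3′ UTR within the span of the table's transcripts, against 11.7% of 17589 symbols with an annotated 3′ UTR. EGFR holds it at 3 places in the longer 3′ UTR of the annotated transcript EGFR-201, on chromosome 7 past the end of the span that was counted. These 3 sites are shown with capitals on the same 7 bases, and their part in the results was not tested.
N6AMT1 target: acgctgtaacaaagttcACATTCAa
EGFR chr7:55276195-55276219 (+): tgagagctcACATTCAtaggtgccg
EGFR chr7:55276612-55276636 (+): gttattgcaACATTCAtcaaagttt
EGFR chr7:55279078-55279102 (+): gttttagaaACATTCAagcaatagc

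The 300 bases around the start of 4 of the genes are shown, from 250 before to 50 after it, because these genes carry the results that follow. They are EREG and AREG, neighbours on chromosome 4 that both rose, EGFR, which rose most, and ERRFI1, the only one of the 10 that fell. The sequences are RefSeq promoters of GRCh38.p14, of which the table used here holds 10 for 8 of the genes. Capitals mark matches on either strand to 3 motifs, the TATA box TATAAA, the cyclic AMP response element TGACGTCA and the GC box GGGCGG. Of 35116 promoters of the same length, 11.5% hold the TATA box, 1.8% the cyclic AMP response element and 45% the GC box.
EREG chr4:74364895-74365194 (+): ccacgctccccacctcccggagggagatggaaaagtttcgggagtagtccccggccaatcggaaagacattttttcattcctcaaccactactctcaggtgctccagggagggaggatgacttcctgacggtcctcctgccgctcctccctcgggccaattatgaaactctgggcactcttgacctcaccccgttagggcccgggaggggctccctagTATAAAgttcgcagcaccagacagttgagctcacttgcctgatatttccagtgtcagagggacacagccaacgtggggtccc
AREG chr4:74444886-74445185 (+): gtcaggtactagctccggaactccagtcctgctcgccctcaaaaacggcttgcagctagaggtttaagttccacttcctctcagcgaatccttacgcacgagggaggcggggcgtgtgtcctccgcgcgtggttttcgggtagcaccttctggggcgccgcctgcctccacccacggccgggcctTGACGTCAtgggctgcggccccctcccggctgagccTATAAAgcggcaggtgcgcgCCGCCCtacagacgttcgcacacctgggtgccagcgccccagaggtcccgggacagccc
EGFR chr7:55018767-55019066 (+): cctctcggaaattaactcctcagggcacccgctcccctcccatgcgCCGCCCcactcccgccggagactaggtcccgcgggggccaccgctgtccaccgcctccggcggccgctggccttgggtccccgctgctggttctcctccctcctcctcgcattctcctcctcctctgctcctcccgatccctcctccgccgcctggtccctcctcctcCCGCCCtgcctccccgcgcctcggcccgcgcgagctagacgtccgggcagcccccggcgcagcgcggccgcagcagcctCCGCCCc
ERRFI1 chr1:8026260-8026559 (-): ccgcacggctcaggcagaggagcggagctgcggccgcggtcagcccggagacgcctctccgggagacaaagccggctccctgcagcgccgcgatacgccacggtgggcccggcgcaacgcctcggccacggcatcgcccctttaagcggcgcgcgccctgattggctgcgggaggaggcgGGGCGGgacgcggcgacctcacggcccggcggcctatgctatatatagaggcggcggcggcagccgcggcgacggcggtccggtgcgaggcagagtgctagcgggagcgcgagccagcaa
EREG and AREG each hold a TATA box, and AREG also holds 1 cyclic AMP response element and 1 GC box. The EGFR promoter shown holds 3 GC boxes and no TATA box, with 75.3% G and C against a median of 58.7% over all promoters. A second EGFR promoter in the table, at chr7:55109589-55109888 and not shown, has other features, with 42% G and C, no GC box, 2 TATA boxes and 2 matches to the AP-1 motif TGANTCA. The ERRFI1 promoter is as rich in G and C, at 74.7%, and holds 1 GC box. The AP-1 motif, which 7.7% of all promoters hold, was in none of the 4 shown.

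The 6 libraries held 13740097 to 19832395.5 counts on the chosen transcripts. The targeted gene N6AMT1 was at 10.2, 10.9 and 11.4 CPM (the count scaled to a common library size with edgeR's TMM factors) in the siControl samples and at 2.87, 3.22 and 3.35 CPM in the siKMT9α#1 samples, a log2 fold change of -1.77 (standard error, SE, 0.12). Every SE of a log2 fold change and every adjusted p below come from edgeR's quasi-likelihood test unless another test is named. Of the cell type markers checked, the epithelial keratins KRT8 and KRT18 were at 1280.5 and 2041 CPM in siControl, whereas EPCAM and CDH1 were at 3.85 and 3.38 CPM. The summed level of the 5 epithelial markers was 3214 to 3576 CPM in siControl and 1725 to 1816 CPM in siKMT9α#1, and KRT8 and KRT18 made up most of it. CDH1 went the other way, to 8.6 CPM (log2 fold change 1.34), while EPCAM fell to 0.572 CPM (-2.76). Of the other markers, 4 of 6 for fibroblasts, 3 of 4 for leukocytes and 4 of 4 for endothelial cells stayed under 1 CPM in every sample, among them COL1A2 and CD3E at 0, and the other 3 were low and fell. LUM went from 3.14 to 0.279 CPM (log2 fold change -3.45), COL1A1 from 4.28 to 2.79 CPM (-0.61) and CD14 from 3.55 to 1.92 CPM (-0.86). As these are bulk samples, a change in RNA per cell and a change in the make-up of the culture cannot be told apart, and the part of the marker changes in the results below was not tested.

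Of the 10 genes, 7 had an adjusted p under 0.05, EREG, AREG, HBEGF, TGFA, NRG1 and EGFR higher and ERRFI1 lower after KMT9α knock-down. BTC, ERBB2 and ERBB3 did not pass the test. For NRG1 the direction holds for the chosen transcript and not for all of its transcripts, as described below. Of all 13877 genes tested, 75.6% passed the same threshold, 37.1% higher and 38.5% lower, so that the share of 7 in 10 lay near that of the whole table. The median log2 fold change was 0.85 over the 10 genes and -0.01 over all genes tested, whose changes in both directions cancel in that median. Because the 10 genes were chosen with earlier results of these data known, setting them against all genes only describes the list. At the threshold that the study used, P below 1e-08 with a log2 fold change beyond 0.26 in either direction, 6 of the 10 passed, all of the 7 but AREG, against 24.2% of all genes tested. ERRFI1 no longer passed that threshold without siControl replicate 2 or 3 or without siKMT9α#1 replicate 1 or 2 (P between 1.90e-08 and 1.37e-07 in edgeR's quasi-likelihood test), which left 5. For the same 7 genes no siKMT9α#1 sample overlapped the siControl range, as in 77.0% of all genes tested, and for each of them the exact permutation test gave p = 0.1, the smallest that 3 samples against 3 allow.

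**Figure D1:**
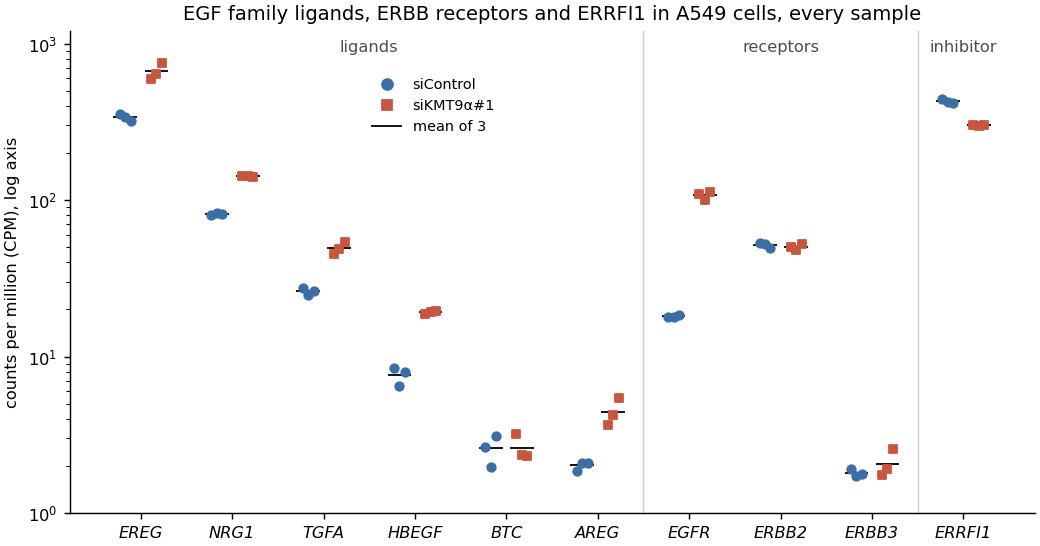
CPM of the 10 genes in each of the 6 samples on a log axis, with siControl as circles, siKMT9α#1 as squares and the mean of 3 samples as a line. The squares lie above the circles for EREG, NRG1, TGFA, HBEGF, AREG and EGFR, below them for ERRFI1, and among them for BTC, ERBB2 and ERBB3.

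Among the ligands, EREG was the most abundant and it rose about 2-fold. EREG encodes epiregulin, a ligand of EGFR and ERBB4, and is listed as NM_001432 on chromosome 4 of hg19 from 75230860 to 75254477. Its level was 354, 339 and 318 CPM in siControl replicates 1 to 3 and 598, 642 and 756 CPM in siKMT9α#1 replicates 1 to 3. All siKMT9α#1 samples lay above all siControl samples, with a wider spread after knock-down (SD 81.6 against 17.8 CPM, n = 3 each). The log2 fold change was 0.98 (SE 0.07, edgeR adjusted p = 1.29e-10), a 1.97-fold rise, and 10.4% of the genes tested had a higher one.

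AREG, encoding amphiregulin, a low-affinity ligand of EGFR, lies 56.4 kb past EREG on the same chromosome, as NM_001657 from 75310853 to 75320726. It was at 1.86, 2.10 and 2.08 CPM in siControl and at 3.63, 4.24 and 5.44 CPM in siKMT9α#1. The groups did not overlap, and the log2 fold change was 1.17 (SE 0.18, edgeR adjusted p = 9.53e-06). The level rests on 33.5 to 104 counts per sample. It is also uncertain for another reason: hg19 holds a near-identical copy, AREGB, at chr4:75480629-75490486, which the table lists without counts, and 95.8% of the 1185 windows of 50 bases in the AREG transcript occur in the copy as well. How the authors' counting treated reads that match both is not given in the sources used here. The absolute level of AREG may thus be understated, and its distance below EREG overstated.

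BTC, which encodes betacellulin and lies 351 kb past AREG, at 75671448 to 75719882, stood at 2.66, 1.98 and 3.12 CPM in siControl. In siKMT9α#1 it stood at 3.17, 2.34 and 2.30 CPM. The groups overlapped, and the log2 fold change of -0.02 (SE 0.20) has an interval of -0.42 to 0.37, which does not reach the changes of EREG or AREG. Between EPGN and BTC, a stretch of 546 kb thus held 2 ligand genes that rose, 1 whose change was not detectable at 31.5 to 59.5 counts per sample, and EPGN, the gene of epigen, with at most 2 counts in any sample.

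HBEGF, the heparin-binding ligand whose precursor is also the diphtheria toxin receptor, had the largest log2 fold change among the ligands. It is listed as NM_001945 on chromosome 5 from 139712428 to 139726188. Its level was 8.39, 6.48 and 7.95 CPM in siControl and 18.7, 19.3 and 19.6 CPM in siKMT9α#1. The samples after knock-down lay close together and at more than double the highest control, with a log2 fold change of 1.33 (SE 0.10, edgeR adjusted p = 2.97e-10).

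TGFA, encoding transforming growth factor alpha, the ligand first found through its activity on EGFR in transformed cells, is listed as NM_003236 on chromosome 2 from 70674412 to 70781147. It was at 27.5, 24.9 and 26.4 CPM in siControl and at 45.4, 48.4 and 53.7 CPM in siKMT9α#1. It rose 1.88-fold without overlap between the groups (log2 fold change 0.91, SE 0.07, edgeR adjusted p = 5.87e-10). A second listed transcript of TGFA, 3 bases shorter, gave the same log2 fold change of 0.91.

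Of the 5 ligands of the family outside the 10 genes, EGF, NRG2 and NRG4 were tested. EGF itself, the founding ligand, went the other way, from 2.55, 2.53 and 2.70 CPM in siControl to 0.227, 0.731 and 0.575 CPM in siKMT9α#1. It fell by 2.30 on the log2 scale (SE 0.27, edgeR adjusted p = 2.93e-07), on 3 to 11 counts per sample after knock-down. NRG2 and NRG4 did not pass the test (log2 fold changes 0.31 and -0.20, SEs 0.22 and 0.20), NRG3 had no count in any sample and EPGN was too low to test. Over the 11 ligands, 5 rose, 1 fell, 3 did not pass and 2 were not tested.

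Per transcript length, EREG made up most of the ligand RNA in both groups. Summed over the 11 ligands, the level was 118, 113 and 111 CPM per kb in siControl and 199.6, 210.2 and 238 CPM per kb in siKMT9α#1, a 1.89-fold higher mean. EREG held 64.0% ± 1.59 of this sum in siControl and 66.7% ± 2.07 in siKMT9α#1 (SD, n = 3 each), and its ranges overlapped. The sum without EREG also lay higher, at 41.0 ± 1.12 against 71.7 ± 1.92 CPM per kb (SD, n = 3 each), so that the higher total did not rest on EREG alone. Both sums take NRG1 from its chosen transcript, which rose, while some other NRG1 transcripts fell. NRG1 followed with 22.5% ± 1.01 and 20.7% ± 1.90, TGFA with 5.35% ± 0.216 and 5.30% ± 0.0476, and HBEGF with 2.84% ± 0.349 and 3.81% ± 0.262 (SD, n = 3 each). The share of HBEGF did not overlap between the groups, and neither did that of BTC, which was lower after knock-down, at 1.72%, 1.33% and 2.14% in siControl and 1.21%, 0.848% and 0.738% in siKMT9α#1 (exact permutation p = 0.1 for HBEGF and BTC, 0.2 for EREG and NRG1, and 0.8 for TGFA).

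**Figure D2:**
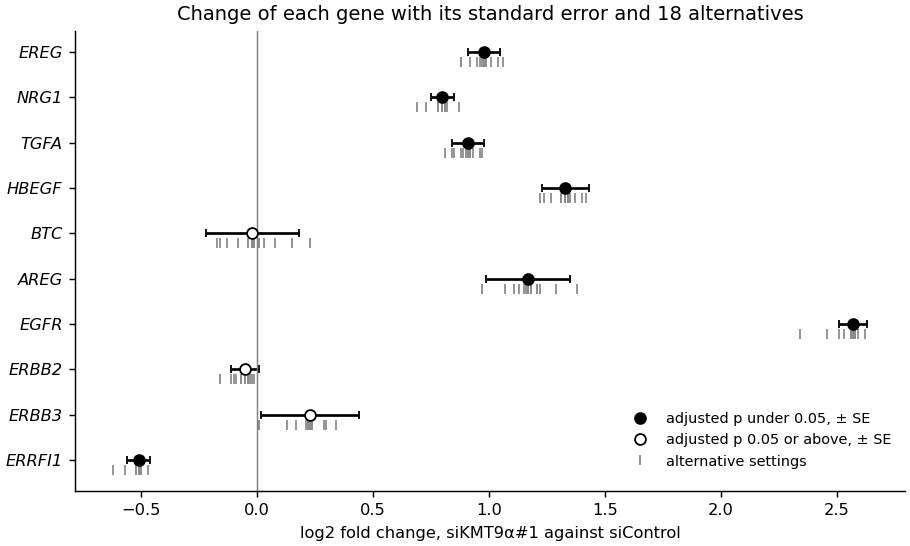
Log2 fold change of siKMT9α#1 against siControl for the 10 genes, with 1 standard error as the bar, and the value under each of 18 alternative settings as a grey tick. Filled points passed an adjusted p of 0.05. The ticks of EGFR run from 2.34 to 2.62, and those of BTC lie on both sides of 0.

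NRG1, encoding the neuregulins that bind ERBB3 and ERBB4, rose on its chosen transcript, and its transcripts did not change alike. The chosen transcript NM_001160004, on chromosome 8 from 32405728 to 32622558, was at 80.1, 82.9 and 81.7 CPM in siControl and at 141.6, 142.5 and 140.8 CPM in siKMT9α#1. Its log2 fold change was 0.80 (SE 0.05, edgeR adjusted p = 8.69e-12), and the spread within each group was under 2% of the mean (CV 1.72% and 0.595%). The choice by total counts included the knock-down samples. In siControl alone, NM_013958 had more counts, at 1609.5, 1469 and 1701 against 1507.5, 1341.5 and 1571.5 for NM_001160004. NM_013958 fell (log2 fold change -0.18 in the fit over every transcript), so the rise of NRG1 depends on the transcript chosen.

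The table lists 17 transcripts of NRG1, and a fit over all 24770 transcripts tested found 10 of them higher, 4 lower and 3 not past the threshold. CPM values of this fit are lower than those above because reads in shared exons count towards several transcripts in the library total. The direction went with where a transcript ends. All 9 transcripts that end at 32622558 rose, with log2 fold changes from 0.79 to 1.36, and these are the forms that reach the last exons, which encode the long cytoplasmic tail of the membrane-anchored precursor. All 4 that end at 32600770 fell, from -0.18 to -0.41, among them NM_013959, the sensory and motor neuron-derived factor SMDF, and NM_013962, a glial growth factor form. The 3 that end at 32586136 had values between 0.04 and 0.06 and did not pass, and NM_001160008, which ends at 32618507, rose by 0.37 (SEs 0.05 to 0.07 over the 17).

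The extremes were NM_001159996 and NM_013959. NM_001159996, which starts last, at 32579351, was at 22.5, 20.1 and 19.8 CPM in siControl and at 53.5, 53.3 and 53.9 CPM in siKMT9α#1, a log2 fold change of 1.36. NM_013959, which starts at 32504251, was at 27.0, 25 and 24.6 CPM in siControl and at 21.4, 18.9 and 17.7 CPM in siKMT9α#1, a log2 fold change of -0.41. The ratio of the first to the second was 0.816 ± 0.0168 in siControl and 2.79 ± 0.274 in siKMT9α#1 (SD, n = 3 each), given with no test since the pair was picked as the extremes. Between NM_013957 and NM_013958, which share their start and differ in their end, the ratio was 0.918 ± 0.0101 in siControl and 1.81 ± 0.0931 in siKMT9α#1 (SD, n = 3 each), a pair that was also chosen after the values were seen.

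Each transcript was then tested against its own gene with edgeR's test of differential transcript usage, which was added after the transcript values had been seen. Of the 16390 transcripts of 5497 genes tested in this way, 1.10% differed from their gene at an adjusted p under 0.05, and they belonged to 91 genes. Of the 17 NRG1 transcripts, 16 did, and no other gene had more. Such a count can be high only in a gene with many listed transcripts, and it was not set against their number. NM_001160008 did not differ (adjusted p = 0.125 in edgeR's test). Transcripts of NRG1 share exons and so share reads, and the 16 are therefore not 16 separate observations. The listed forms have 5 start positions, and reads in exons shared by forms with different ends could not be assigned to one end or the other in this table.

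**Figure D3:**
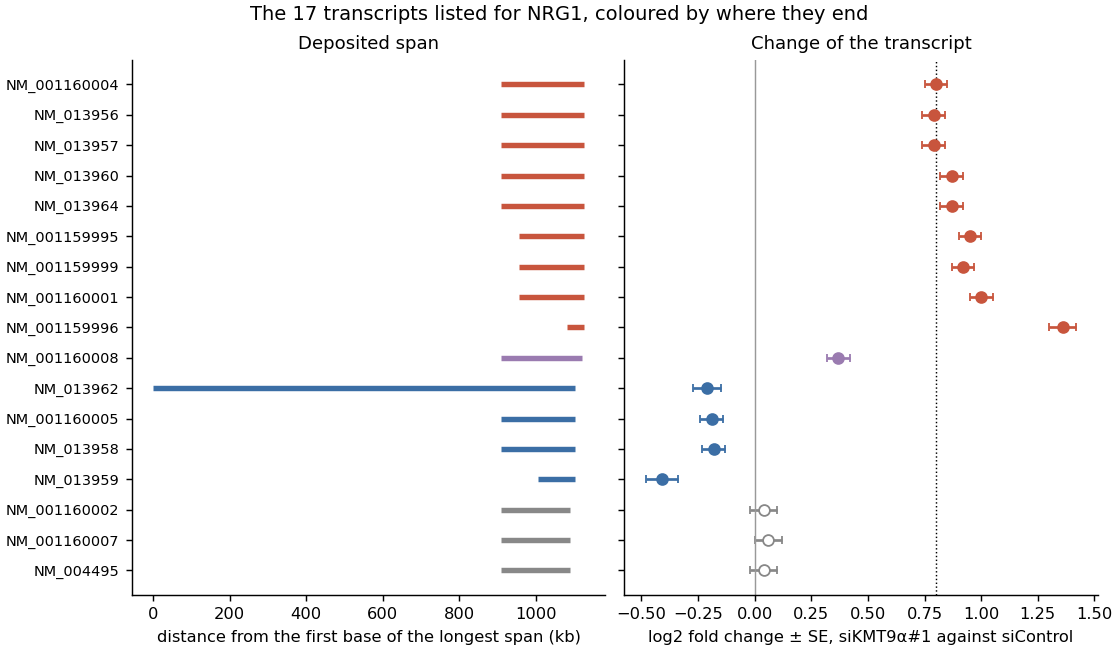
Left, the span of each of the 17 listed NRG1 transcripts as distance in kb from the first base of the longest; right, its log2 fold change with 1 standard error, siKMT9α#1 against siControl. Colour marks where the transcript ends, open points did not pass an adjusted p of 0.05 and the dotted line is the value of the chosen transcript, 0.80. The 9 transcripts with the most distant end lie from 0.79 to 1.36, and the 4 that end at 32600770 lie below 0.

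Of the receptors, EGFR rose almost 6-fold whereas ERBB2 and ERBB3 did not pass the test. EGFR is listed as NM_005228 on chromosome 7 from 55086725 to 55275031. Its level was 18, 17.9 and 18.3 CPM in siControl and 109, 99.5 and 113 CPM in siKMT9α#1. The lowest sample after knock-down lay more than 5 times above the highest control. The log2 fold change was 2.57 (SE 0.06, edgeR adjusted p = 4.01e-17), a 5.94-fold rise and the 79th highest of the 13877 genes tested. Leaving out each sample in turn gave values from 2.53 to 2.62, and offsets for GC content and length gave 2.34.

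EGFR has 4 listed transcripts, of which 3 end early and encode forms that lack the kinase part of the receptor. In the fit over every transcript the full-length NM_005228 was at 9.71 ± 0.113 CPM in siControl and 57.6 ± 3.70 CPM in siKMT9α#1 (SD, n = 3 each). The shortest, NM_201283, was at 1.83 ± 0.241 and 7.93 ± 0.733 CPM (SD, n = 3 each). All 4 rose, with log2 fold changes of 2.57 for NM_005228, 2.25 for NM_201282, 2.21 for NM_201284 and 2.10 for NM_201283 (SEs 0.06 to 0.12). None of them differed from the gene in edgeR's test of transcript usage (adjusted p = 1 for each). The ratio of NM_201283 to NM_005228 was nevertheless lower in every sample after knock-down, at 0.218, 0.172 and 0.176 in siControl and 0.148, 0.135 and 0.130 in siKMT9α#1, a pair chosen after the values were seen. The 4 transcripts start at the same base, 55086725, and reads in shared exons count towards several of them. The rise of the 3 short forms and this ratio were therefore not measured apart from the full-length form.

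ERBB2, the receptor without a ligand and the preferred partner of the others, is listed as NM_004448 on chromosome 17 from 37856254 to 37884915, a span that also holds MIR4728. It was at 53.3, 52.7 and 49.7 CPM in siControl and at 49.8, 47.6 and 52.4 CPM in siKMT9α#1. The groups overlapped and the log2 fold change was -0.05 (SE 0.06, interval -0.16 to 0.06, edgeR adjusted p = 0.423). Without TMM factors, scaling by library size alone, which shifted the median of all genes by -0.11, it was -0.16 and passed the threshold (adjusted p = 0.0189).

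ERBB3, the receptor with an impaired kinase that binds neuregulins, is listed as NM_001982 on chromosome 12 from 56473809 to 56497291. It was at 1.91, 1.73 and 1.77 CPM in siControl and at 1.74, 1.90 and 2.56 CPM in siKMT9α#1. The log2 fold change was 0.23 (SE 0.21, edgeR adjusted p = 0.314) on 23 to 49 counts per sample, with an interval from -0.17 to 0.63. ERBB4, the other neuregulin receptor, had at most 2 counts in any sample and was not tested. The ligand NRG1 was thus present at a level far above that of either of the receptors that bind it, 44.5 CPM per kb against 0.363 CPM per kb for ERBB3 after knock-down.

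Per transcript length, the order of EGFR and ERBB2 turned over on the transcripts chosen for them. In siControl ERBB2 stood at 11.4 ± 0.424 and EGFR at 3.26 ± 0.0370 CPM per kb, and in siKMT9α#1 ERBB2 stood at 10.9 ± 0.522 and EGFR at 19.3 ± 1.24 CPM per kb (SD, n = 3 each). The ratio of EGFR to ERBB2 was 0.278, 0.280 and 0.304 in siControl and 1.81, 1.72 and 1.77 in siKMT9α#1 (exact permutation p = 0.1, the same as for EGFR alone). EGFR held 21.8% ± 0.825 of the summed level of the 4 receptors in siControl and 63.1% ± 0.604 in siKMT9α#1 (SD, n = 3 each). The summed level itself went from 14.9 ± 0.399 to 30.6 ± 1.80 CPM per kb (SD, n = 3 each), and ERBB3 held 2.12% and 1.18% of it. The turnover and these shares depend on the EGFR transcript taken. In the fit over every transcript, siKMT9α#1 means were 10.4 CPM per kb for NM_005228, 5.93 for NM_201282, 5.11 for NM_201283 and 4.69 for NM_201284. The ERBB2 transcripts NM_004448 and NM_001005862 were at 5.87 and 5.57 CPM per kb there.

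**Figure D4:**
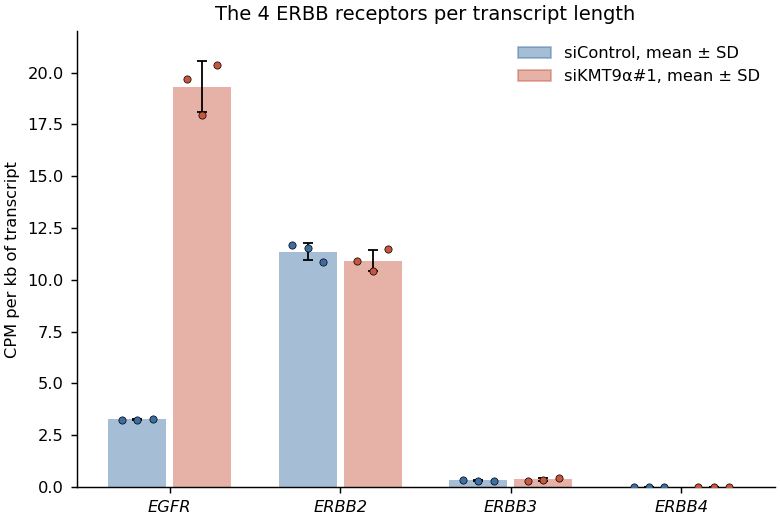
Level of the 4 ERBB receptors in CPM per kb of the transcript chosen for each, as the mean (bar), SD (error bar) and single samples (points) of siControl and siKMT9α#1, n = 3 each. EGFR lies below ERBB2 in siControl, at 3.26 against 11.4, and above it in siKMT9α#1, at 19.3 against 10.9, and ERBB3 and ERBB4 lie close to 0.

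ERRFI1, the inhibitor, was the most abundant of the 10 genes per transcript length in siControl and the one that fell. It is listed as NM_018948 on chromosome 1 from 8071779 to 8086393. Its level was 445, 426 and 417 CPM in siControl and 301, 299.6 and 304 CPM in siKMT9α#1. All samples after knock-down lay below all controls, within 0.674% (CV) of each other. It fell by 0.51 on the log2 scale (SE 0.05, edgeR adjusted p = 6.23e-09), to 0.702 of the control level. Since EGFR rose, the ratio of ERRFI1 to EGFR per transcript length was 43.9, 42.3 and 40.5 in siControl and 4.89, 5.35 and 4.78 in siKMT9α#1. Both genes had already separated, in opposite directions, so the exact permutation p = 0.1 of the ratio was fixed and adds nothing to theirs.

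Ordered by CPM per kb, the 10 genes ran in siControl from ERRFI1 (138) over EREG (73.0), NRG1 (25.6), ERBB2 (11.4), TGFA (6.10), EGFR (3.26), HBEGF (3.24), BTC (1.97) and AREG (1.64) to ERBB3 (0.316). The neighbours EGFR and HBEGF overlapped in their samples, and so did BTC and AREG. In siKMT9α#1 the order was EREG (144), ERRFI1 (96.5), NRG1 (44.5), EGFR (19.3), TGFA (11.4), ERBB2 (10.9), HBEGF (8.18), AREG (3.61), BTC (1.99) and ERBB3 (0.363), and of the neighbours only TGFA and ERBB2 overlapped. EREG passed ERRFI1, and EGFR passed TGFA and ERBB2. The mean of TGFA also passed that of ERBB2, with overlapping samples after knock-down, and that of AREG passed that of BTC, with overlapping samples in siControl and the limit on AREG given above. For NRG1 and EGFR these levels depend on which transcript stands for the gene.

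The genes around the receptors were counted in 5 lists chosen by function, 56 genes in all, of which 55 were tested, 33 rose, 12 fell and 10 did not pass. That 81.8% passed the threshold is to be read against 75.6% of all genes tested. By direction, 37.1% of all genes tested were higher and 38.5% lower, and the counts of each list below are to be read beside these shares. The lists were not tested as sets.

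Of 9 genes for ligand shedding, 7 rose and none fell, with a median log2 fold change of 0.51. ADAM10, the protease known to release EGF and BTC, rose from 54.1 ± 6.67 to 234 ± 15.4 CPM (SD, n = 3 each), or by 2.11 on the log2 scale (SE 0.07). ADAM12, a protease linked to the release of HBEGF, rose by 2.63 (SE 0.13) from a low level of 1.99 ± 0.348 CPM (SD, n = 3), and ADAM9 rose by 0.73. ADAM17, which releases AREG, EREG, TGFA and HBEGF, rose by 0.29 (SE 0.06), and ADAM15 and BACE1 did not pass. ADAM17 was singled out for its role, outside the rule for named genes.

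Of 17 adaptors and first effectors, 10 rose, 3 fell and 4 did not pass, with a median of 0.37. GAB1, a docking protein for PI3K at activated EGFR, rose from 4.60 ± 0.536 to 22.8 ± 0.789 CPM (SD, n = 3 each), by 2.30 on the log2 scale (SE 0.10). The adaptor CRK rose by 0.78 and the PI3K catalytic subunit gene PIK3CB by 0.75. The adaptor NCK1 fell by 1.26, and the PI3K regulatory subunit genes PIK3R1 and PIK3R2 fell by 0.50 and 0.26, where PIK3R2 did not pass without siControl replicate 3 (-0.20, edgeR adjusted p = 0.0705).

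Receptor ubiquitination and sorting was the list in which most genes fell, 7 of 11 tested, with 2 that rose and a median of -0.23. The ubiquitin ligases that mark EGFR for degradation went in different directions. CBL rose from 17.6 ± 0.880 to 50.1 ± 2.34 CPM (SD, n = 3 each), by 1.51 on the log2 scale, and CBLB fell from 52.9 ± 1.56 to 21.1 ± 1.02 CPM (SD, n = 3 each), by 1.34, while CBLC had no counts. TSG101, of the complex that sorts ubiquitinated receptors into multivesicular bodies, fell by 1.11 and STAM2, of the step before it, fell by 0.56. The adaptor SH3KBP1, which links CBL to endocytosis, rose by 0.27.

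All 8 genes for receptor attenuation rose, with a median of 0.96, in contrast to ERRFI1. They include the phosphatase gene PTPRK, whose product dephosphorylates EGFR and which rose by 2.01 (45.2 ± 3.21 to 181 ± 18.3 CPM, SD, n = 3 each). LRIG3 and SOCS4 each rose by 1.01, and whether their own products lower ERBB receptor levels was not examined here.

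Of 10 genes read as marks of MAPK pathway activity, 6 rose, 2 fell and 2 did not pass, with a median of 0.26. SPRY2, a feedback regulator of receptor signalling, rose by 1.73, CCND1, the gene of cyclin D1, by 1.07 and EPHA2 by 1.01. ETV5, an ETS factor, fell by 0.42. DUSP4, a MAPK phosphatase, fell by 0.12 from 542 ± 18.4 to 500.3 ± 13.6 CPM (SD, n = 3 each), and it did not pass under 8 of the 18 alternatives, among them without siControl replicate 2 or 3 and without siKMT9α#1 replicate 2 or 3 (-0.12, -0.08, -0.12 and -0.09). DUSP6, the phosphatase of ERK that is widely used as a mark of its activity, was at 49.0 ± 2.33 and 49.5 ± 0.639 CPM (SD, n = 3 each, log2 fold change 0.01, SE 0.06), and was singled out after its value was seen.

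**Figure D5:**
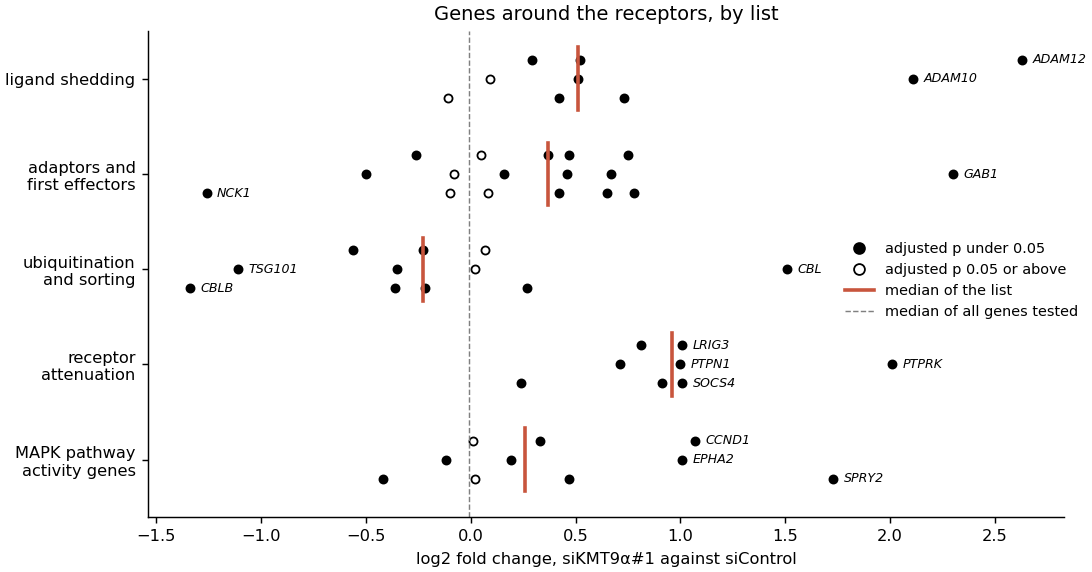
Log2 fold change of siKMT9α#1 against siControl for each tested gene of the 5 lists, with filled points for an adjusted p under 0.05, the median of each list as a red line and the median of all genes tested, -0.01, as a dashed line. Genes with an absolute value of 1 or more are named. The medians run from -0.23 for ubiquitination and sorting to 0.96 for receptor attenuation.

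Among 13086 genes with a mean of at least 1 CPM, those whose profile over the 6 samples was most like that of EGFR were CDCP1, CAV1 and BAAT. Likeness was the root mean square distance of log2 CPM, each gene taken relative to its own siControl mean, and it was 0.057, 0.063 and 0.079 for the 3 genes. CAV1, encoding caveolin of the cell surface, was at 69.3, 62.4 and 66.4 CPM in siControl and at 377, 374 and 389.7 CPM in siKMT9α#1. CDCP1, a membrane protein phosphorylated by SRC family kinases, had a log2 fold change of 2.54 and BAAT one of 2.67. For ERRFI1 the nearest profiles were those of G6PC3, TRAK1 and TNKS, with distances of 0.019, 0.022 and 0.024 and log2 fold changes of -0.52, -0.54 and -0.50. With 6 samples in 2 groups, this measure mostly reflects the size of the change between the groups.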

How the data were processed

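RNA-Seq was measured in 6 samples of A549 cells, 3 with siControl and 3 with siKMT9α#1, grouped by their sample labels. The authors aligned reads to hg19 with STAR and counted them on RefSeq transcripts with HOMER; the deposited estimated counts are not normalized, and all are multiples of 0.5. HOMER's options and the use of strand are not given in the sources used here. The deposited linear fold change (a ratio) and the deposited p-values, which hold the authors' own comparison, were not used. Rows without a symbol and counts, 1182 of 38767, were left out.

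Counts of 1 transcript per symbol were rounded and analysed with edgeR 4.0.16 (R 4.3.3; TMM factors, filterByExpr, quasi-likelihood F test), with Benjamini-Hochberg adjustment over the 13877 genes tested. The standard error was the log2 fold change divided by the square root of F, and intervals are 1.96 standard errors to either side. Levels of single genes were compared by two-sided exact permutation tests of log2 CPM with a prior count of 2. For ratios of CPM per kb the same test used log2 values without a prior count, and for shares it used the percentages themselves. The biological coefficient of variation was 4.47%. Totals of 13740097 to 19832395.5 counts set the depth. On simulated data with 200 of 13885 genes changed by 1 on the log2 scale and the same dispersion for all, the fit called 198, 0 of them in the wrong direction. It also called 12 of the 13685 unchanged genes. In the data 75.6% of genes were called, so the simulation does not show how the fit behaves with so many changes.

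The labels call the samples biological replicates without saying how the cultures were separated, so p-values measure the spread between these samples. The 10 genes and all lists were chosen with earlier results of these data known. Named beside them are N6AMT1, up to 3 genes per direction of each other list with the largest absolute log2 fold change among those with an adjusted p under 0.05 and a mean of at least 1 CPM, the 3 genes nearest in profile to EGFR and to ERRFI1, and copies or overlapping genes. The 3′ UTRs and sites came from GENCODE on GRCh37, where 20784 of 23180 symbols matched. The alternatives were the likelihood-ratio and exact tests, DESeq2 1.42.0, other scalings and filters, other choices of transcript, a replicate block, GC and length offsets and each sample left out. Protein sequences were not used here, and 1 marker gene is not reported here.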

Additional observations from a re-analysis of the deposited data

How the results depend on the processing

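The 7 genes called kept their direction and an adjusted p under 0.05 under all 18 alternatives. Of the 866 values recomputed, 853 kept their side of the threshold and, where either fit called the gene, their direction, or, for counts, stayed within 1.5 times. A change of sign in a gene that neither fit called, as for BTC, was not counted as a difference. The number called was 7 throughout, except with the library size alone, where ERBB2 made it 8. Leaving out 1 sample at a time gave log2 fold changes of 0.88 to 1.06 for EREG, 0.97 to 1.29 for AREG, 1.24 to 1.42 for HBEGF, 0.84 to 0.97 for TGFA and -0.52 to -0.47 for ERRFI1. BTC, not called under any alternative, ranged from -0.17 to 0.23. The number of all genes past the threshold of the study, 3357, was 5962 with the likelihood-ratio test, 5924 with the exact test and 6070 without the filter on low counts, and AREG passed it under these 3 settings (P 5.23e-10, 1.49e-09 and 9.30e-12 in edgeR's tests); the cause was not tested. With the library size alone, 41.2% of the genes called were higher, against 49.1% with TMM. Summing AREG with its copy was not run, since the copy has no counts. The 16 NRG1 transcripts that differed from the gene were 16 under every alternative run for them, which was added after the data were seen.

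Samples that share a replicate number did not deviate together: their deviations from the group means correlated at -0.116, 0.037 and -0.116 for replicates 1, 2 and 3, so the numbers were not taken as pairs. With the replicate block, 7 of the 10 genes were called, 5 passed the threshold of the study, all but ERRFI1 and AREG of the 7, and 10229 genes had an adjusted p under 0.05. Low counts limit AREG, BTC and ERBB3, whose intervals are the widest of the 10.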
